A study of Homo sapiens with 16 samples.

Results

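HCT116, a human colorectal carcinoma cell line with intact p53, was treated with andrographis, an extract of Andrographis paniculata leaves, for 16 h, and its RNA was compared with that of control HCT116 cells. The response is described over the protein-coding genes that reached at least 1 FPKM (fragments scaled to gene length and to the reads of the library) in at least 2 of the 4 HCT116 libraries. These were 11125 of the 19914 protein-coding genes in a table of 60560 genes.

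The study profiled curcumin and andrographis in HCT116 and in SW480, a colorectal carcinoma line with mutant p53, in 16 RNA sequencing libraries, 8 of them from the andrographis experiment. Here the HCT116 andrographis group held 2 libraries and the HCT116 control group 2, and the SW480 andrographis and control groups, also 2 libraries each, served to estimate the spread and to compare the lines. The sequencing protocol names no concentration. The general statement of the study gives 24 µg/mL for HCT116 and 30 µg/mL for SW480 in the experiments that followed the viability assays, and the extract was dissolved in dimethyl sulfoxide (DMSO). The labels call the controls non-treated. In the table, columns marked A were taken as andrographis and columns marked D as these controls, on which every direction below depends. Each line is a single established culture and the extract is a mixture, so neither stands for other colorectal cells or for a single molecule.

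NRF2 is a transcription factor that the adaptor KEAP1 normally marks for destruction. When reactive compounds modify KEAP1, NRF2 accumulates and switches on genes for glutathione, thioredoxin, NADPH and the detoxification of heme and aldehydes. The tumor suppressor p53 answers DNA damage and other stress by switching on cell cycle inhibitors and death genes. In colorectal cells, growth is further steered by Wnt signaling through TCF factors and by the ERK kinase cascade, which induces its own phosphatases.

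The sequencing depth recovered from the values was 23.01 M (megareads) and 19.8 M in the control libraries and 29.2 M and 26.26 M in the andrographis libraries. It is approximate and holds only if the values are FPKM, which is an assumption. The libraries of a group lay close together. The median absolute log2 difference between them over the 11125 genes was 0.0756 in HCT116 control and 0.0582 in HCT116 andrographis, against 0.184 and 0.234 in SW480 control and andrographis. Of 12 epithelial markers, 9 were measured in HCT116 cells, and their summed level was 1023 and 1085 FPKM in control and 1378 and 1368 FPKM in andrographis libraries. The higher sum came with KRT19, the only one that passed, while 4 of the 9 were higher and 5 lower and their median log2 fold change was -0.01. Only 1 of 8 immune markers and 2 of 11 stromal and endothelial markers (COL1A1, ACTA2) passed the floor, and the summed stromal and endothelial level was 12.9 to 15.5 FPKM. Several genes that every cell uses were near 0 in this table, among them PSMA2, PSMB3 and B2M, so a value below the floor is not read as absence of expression. In bulk RNA, a change in cell composition and a change in RNA per cell cannot be told apart.

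Andrographis changed 694 of the 11125 genes (6.24%) at an adjusted p below 0.05 with an absolute log2 fold change above 0.5, against 726 of all 12811 genes tested (5.67%). Of these, 303 rose (2.72%) and 391 fell (3.51%). The 15 largest rises were headed by the carboxypeptidase CPA4 and included HMOX1, AKR1B10, FTL, OSGIN1, TXNRD1 and GCLM of the antioxidant response and the p53 target SFN. The 15 largest falls were headed by H2BC13 and included the further replication histones H2BC14, H4C8, H2AC14 and H2BC7. The fold changes ran from -2.34 to 3.41, with a median of -0.01 over all 11125 genes. In 8494 genes (76.4%) the groups did not overlap, so separation of the groups by itself says little here. At the threshold of the study's methods, an unadjusted p below 0.05 with the same fold change, 1096 genes (9.85%) passed, 499 up and 597 down.

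**Figure D1:**
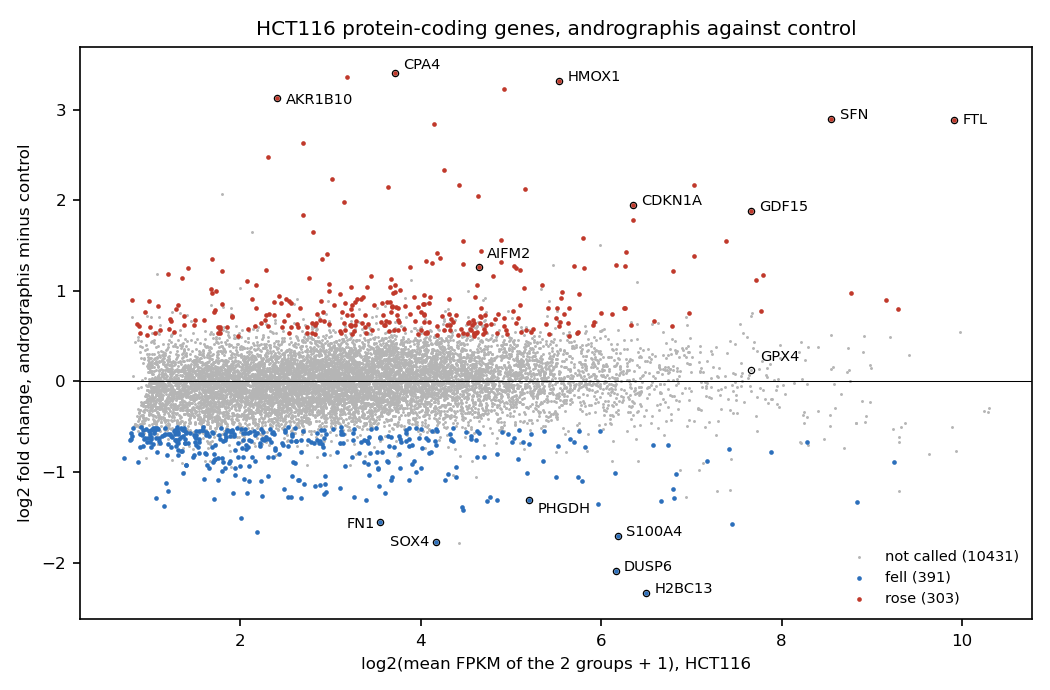
Log2 fold change (andrographis minus control, on the log2(FPKM + 1) scale) against the mean level of 11125 protein-coding genes in HCT116 cells, each point a gene. The 303 genes that rose are red and the 391 that fell are blue; HMOX1 and FTL stand among the highest rises and H2BC13 and DUSP6 at the bottom.

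The adjusted count depended on single libraries. Without any 1 of the 4 HCT116 libraries it was 49 (without andrographis replicate 1), 55 (without andrographis replicate 2), 83 (without control replicate 1) or 75 (without control replicate 2). In these fits the lone library of a group was assumed to vary like the other groups. All 694 genes kept their direction and an unadjusted p below 0.05 in each of these fits. The call itself was kept in every one by 47 genes, 32 that rose and 15 that fell. The first group held CPA4, CYP4F3, HMOX1, CYP4F11, AKR1B10, SFN, FTL, OSGIN1, HRNR, KRT15, TXNRD1, GCLM, GCLC, CDKN1A, GDF15, SQSTM1 and NQO1, and the second held S100A4, IGSF9, DRD1, NCOA5 and FAT4. With only the 4 HCT116 libraries in the fit the count was 1173. For gene lists, the text gives members called at an adjusted p below 0.05 with any fold change. By that rule 352 genes rose (3.16%) and 486 fell (4.37%) over all, and 19.8% and 21.9% did so when only the 4 HCT116 libraries were fitted. At an unadjusted p below 0.05 by limma with any fold change, 1254 of the 11125 genes were higher and 1603 lower. Whatever the p, 5335 were higher and 5790 lower. With any 1 HCT116 library left out, rising members were called in the NRF2, p53, ferroptosis, reductase, autophagy and matrix lists and in no other list, and at most 1 member fell in any list.

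**Figure D2:**
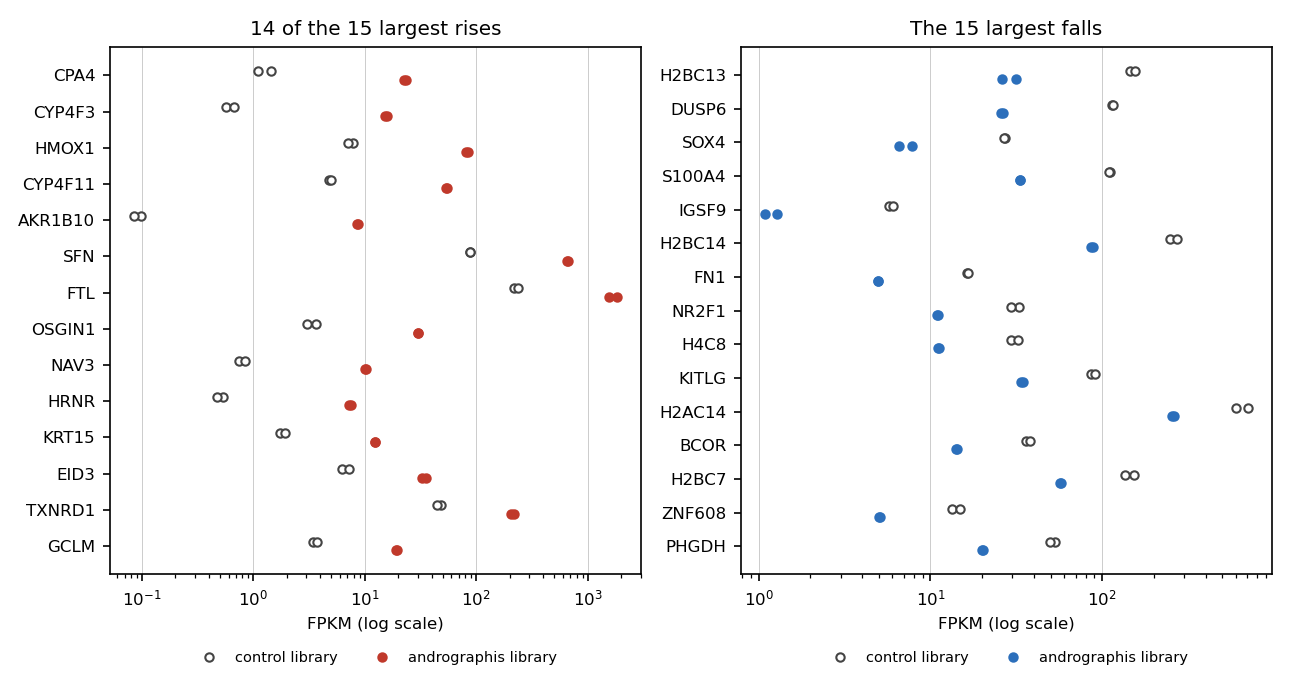
FPKM (log axis) in every HCT116 library for 14 of the 15 largest rises (left) and the 15 largest falls (right); open circles are the 2 control libraries and filled circles the 2 andrographis libraries. The genes were chosen among those with separated groups, and FTL is the most abundant of the rises, at 1566 FPKM or more in both andrographis libraries.

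NRF2 targets had the highest median of the gene lists. Of 39 listed, 34 were measured, 23 rose and 1 fell, and the median log2 fold change was 1.17 against -0.01 over all genes. Heme oxygenase HMOX1, which breaks heme down to biliverdin, iron and carbon monoxide, stood at 7.80 and 7.12 FPKM in control and at 81.2 and 84.8 FPKM in andrographis libraries. The rise was 3.31 on the log2 scale (SE 0.13, limma adjusted p = 0.00016). The ferritin light chain FTL, which stores iron, was at 219 and 236 FPKM in control and at 1831 and 1566 FPKM in andrographis libraries (2.89, SE 0.16, adjusted p = 0.000525). Both control libraries lay far below both treated ones. The heavy chain FTH1 went from 9.43 and 11.01 to 30.4 and 33.5 FPKM (1.56, SE 0.18, adjusted p = 0.0072). Both ferritin genes have near-identical pseudogenes, so their levels are uncertain where reads match several places.

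Glutathione and thioredoxin genes rose side by side. Glutamate-cysteine ligase makes the first, limiting step of glutathione synthesis. Its modifier subunit GCLM was at 3.44 and 3.72 FPKM in control and at 19.2 and 19.4 FPKM in andrographis libraries (2.15, SE 0.09, adjusted p = 0.00016). The catalytic subunit GCLC went from 12.2 and 12.3 to 57.6 and 56.4 FPKM (2.13, SE 0.14, adjusted p = 0.000972). SLC7A11, which imports cystine for this pathway, went from 8.70 and 8.21 to 23.1 and 22.4 FPKM (1.33, SE 0.15). The libraries of a group lay close together in each of these genes. The thioredoxin reductase TXNRD1 was at 48.5 and 44.7 FPKM in control and at 219 and 206 FPKM in andrographis libraries (2.17, SE 0.13, adjusted p = 0.000614), its substrate TXN rose by 1.12 (SE 0.22), the glutathione reductase GSR by 1.38 (SE 0.17), the peroxiredoxin PRDX1 by 0.98 (SE 0.20) and sulfiredoxin SRXN1, which repairs peroxiredoxins, by 1.66 (SE 0.30).

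Genes of NADPH supply and use rose in part. The quinone reductase NQO1 consumes NADPH, and it went from 79.7 and 89.0 FPKM to 252 and 246 FPKM (1.55, SE 0.11, adjusted p = 0.00112). On the supply side, the malic enzyme ME1 rose by 1.29 (SE 0.19) and PGD of the pentose phosphate pathway by 0.61 (SE 0.11). TKT of the same pathway, which itself makes no NADPH, rose by 0.77 (SE 0.11). IDH1 and TALDO1 of the same list did not pass, at -0.23 and 0.03. OSGIN1, an oxidative stress-induced growth inhibitor, went from 3.62 and 3.03 to 29.96 and 30.04 FPKM (2.85, SE 0.18). SQSTM1, the autophagy receptor that also binds KEAP1, went from 36.1 and 35.5 to 124 and 127 FPKM (1.78, SE 0.11, adjusted p = 0.000777). The exception was ABCC2, an exporter of conjugated organic anions, which fell from 62.2 and 58.5 to 38.9 and 37.9 FPKM (-0.64, SE 0.09, adjusted p = 0.015). NRF2 itself (NFE2L2) was at 40.7 and 41.4 FPKM in control and 41.9 and 40.5 FPKM in andrographis libraries, with a log2 fold change of 0.00, and KEAP1 rose by 0.76 (SE 0.14, adjusted p = 0.0296). NFE2L2 and KEAP1 are outside the list and were picked after their values were seen.

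The list count was 10 or 11 that rose when 1 HCT116 library was left out, and 28 with the HCT116 libraries alone. In SW480 cells 23 of the 34 rose and 0 fell, with a median of 1.14, where 6.45% of all genes passed in either direction. The response differed between the lines in 4 of the 34. AKR1B10, FTL and GCLM moved further up in HCT116, by 2.32 (SE 0.14), 1.29 (SE 0.23) and 0.92 (SE 0.13) on the log2 scale, and ABCC2 was 0.74 lower (-0.74, SE 0.13). SW480 controls held 0 and 0.035 FPKM of AKR1B10 and treated SW480 libraries 0.648 and 0.935 FPKM. At such levels adding 1 before the log shrinks the fold change. ABCC2 was at 0.055 and 0.0514 FPKM in the SW480 controls, which left little room for a fall there.

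The antioxidant response element, to which NRF2 binds with small MAF proteins, has the core TGACNNNGC. This core was searched on both strands from 250 bases before to 50 bases after the gene start, using RefSeq promoters (GRCh38.p14), which matched 9029 of the 11125 genes by symbol. It occurred in 1374 promoters (15.2%). Of the 23 NRF2 targets that rose, 16 had a promoter and 5 of these held the core (31.2%), and of the 15 largest rises 4 of 10 did (40.0%). Among all genes that rose the share was 17.6% (42 of 238), among those that fell 11.1% (32 of 289). These shares rest on few promoters, the core overlaps the TGACTCA motif of AP-1 factors, and a match is no proof of binding. The sequences that follow are from CPA4, CYP4F11 and the NRF2 targets that rose and hold the core, which is in capitals. CPA4 and CYP4F11 are given as the 250 bases before the start, the others as 25 bases around the match, all 5′ to 3′ in the direction of the gene. A core on the opposite strand reads GCNNNGTCA.
CPA4, chr7:130292911-130293160, plus strand: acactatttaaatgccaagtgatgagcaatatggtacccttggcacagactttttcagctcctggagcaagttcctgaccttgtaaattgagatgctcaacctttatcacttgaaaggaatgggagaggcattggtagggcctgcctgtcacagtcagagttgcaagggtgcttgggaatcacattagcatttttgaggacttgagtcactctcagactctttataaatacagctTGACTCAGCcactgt
CYP4F11, chr19:15934868-15935117, minus strand: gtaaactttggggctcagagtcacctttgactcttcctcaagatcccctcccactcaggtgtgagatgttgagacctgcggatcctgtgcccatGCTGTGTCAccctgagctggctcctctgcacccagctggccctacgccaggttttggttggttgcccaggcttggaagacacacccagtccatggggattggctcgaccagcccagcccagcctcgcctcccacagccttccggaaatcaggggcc
TXNRD1, chr12:104215672-104215696, plus strand: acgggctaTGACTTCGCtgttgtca
TXNRD1, chr12:104215763-104215787, plus strand: gtccttcgGCTCCGTCAgttcccac
GCLM, chr1:93909448-93909472, minus strand: cgatttctGCTTAGTCAttgtcttc
ME1, chr6:83431172-83431196, minus strand: tcctgccaTGACTCAGCgcttctcg
PGD, chr1:10398855-10398879, plus strand: tcgccgggGCAATGTCAtctaggtg
PIR, chrX:15493291-15493315, minus strand: cgcgaagcGCTGAGTCAcggtgagg
The first TXNRD1 match began 99 bases before the start and the second 8 bases before it. Those of CPA4, CYP4F11, GCLM, ME1 and PGD began 15, 156, 34, 137 and 201 bases before the start, and that of PIR, an iron-binding pirin, lay 26 bases after it. ME1 held a further match 11 bases after its start. The rises of these genes ran from 0.61 for PGD to 3.41 for CPA4, and the promoter of H4C8, a histone gene that fell by 1.39, held the core as well. A pair of p53 half-sites, searched the same way, was found in 0 of 32 promoters of the p53 list and in 3 of all 9029 (0.0332%), and was too rare in these windows to describe.

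Aldo-keto reductases and cytochromes included some of the 15 largest rises. AKR1B10, an aldo-keto reductase that detoxifies aldehydes, was at 0.0981 and 0.0854 FPKM in control and at 8.65 and 8.44 FPKM in andrographis libraries (3.13, SE 0.10, adjusted p = 0.000153). The cytochrome CYP4F3, a fatty acid and leukotriene hydroxylase, went from 0.567 and 0.668 to 15.8 and 15.4 FPKM (3.36, SE 0.14, adjusted p = 0.00016). CYP4F11, a neighboring fatty acid hydroxylase, was at 4.75 and 4.97 FPKM in control and at 54.2 and 53.3 FPKM in andrographis libraries (3.23, SE 0.17, adjusted p = 0.000371). The groups stood well apart for each of them, while the CYP4F genes are close copies whose reads could be assigned to either. AKR1B10, CYP4F3, HRNR and NAV3 lay below 1 FPKM in both control libraries and passed the floor through the treated ones, as 95 genes did, and 248 passed it through the control libraries only. For such genes the floor itself favored the direction of the change.

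In the list of further reductases and cytochromes, 17 of 22 were measured, 5 rose and 1 fell, with a median of 0.20. ALDH1A3, which oxidizes retinal to retinoic acid, went from 13.4 and 12.002 to 35.3 and 36.7 FPKM (1.44, SE 0.19). ALDH3A2, the fatty aldehyde dehydrogenase, rose by 0.81 (SE 0.14) and NQO2 by 0.46 (SE 0.10). AKR7A3, an aflatoxin aldehyde reductase, fell from 5.01 and 4.57 to 2.198 and 2.0999 FPKM (-0.88, SE 0.19, adjusted p = 0.0406). AKR1C3 of the NRF2 list rose by 1.23 (SE 0.09), from 2.02 and 1.81 to 5.70 and 6.02 FPKM, and is one of several near-identical AKR1C copies. In SW480 cells ALDH1A3 fell (-1.35, adjusted p = 0.0165), and the difference between the lines was 2.78 (SE 0.27, adjusted p = 0.0121).

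Ferroptosis is iron-dependent death by lipid peroxides, which the peroxidase GPX4 and the quinone reductase AIFM2 (FSP-1) oppose. GPX4 was at 191 and 195 FPKM in control and at 213 and 209 FPKM in andrographis libraries, a log2 fold change of 0.13 (SE 0.12, adjusted p = 0.592). AIFM2 rose from 13.8 and 13.5 to 34.7 and 33.8 FPKM (1.27, SE 0.13, adjusted p = 0.00503). Its treated libraries both lay above both controls, and those of GPX4 did so by a much smaller margin. Of 44 ferroptosis genes 35 were measured, 8 rose and 1 fell, with a median of 0.12. The 8 were HMOX1, FTL, FTH1, GCLC, GCLM, SLC7A11, AIFM2 and TFRC, the transferrin receptor, which went from 30.5 and 31.0 to 63.0 and 61.0 FPKM (0.99, SE 0.13). Most of them also stand in the NRF2 list. ACSL5, an acyl-CoA ligase, fell (-0.46, SE 0.10), and ACSL4, LPCAT3 and NCOA4 did not pass, at 0.15, -0.01 and -0.06. The number that rose was 4 whichever HCT116 library was left out. TFRC rose further in SW480 cells, with a difference of -1.02 (adjusted p = 0.0457).

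**Figure D3:**
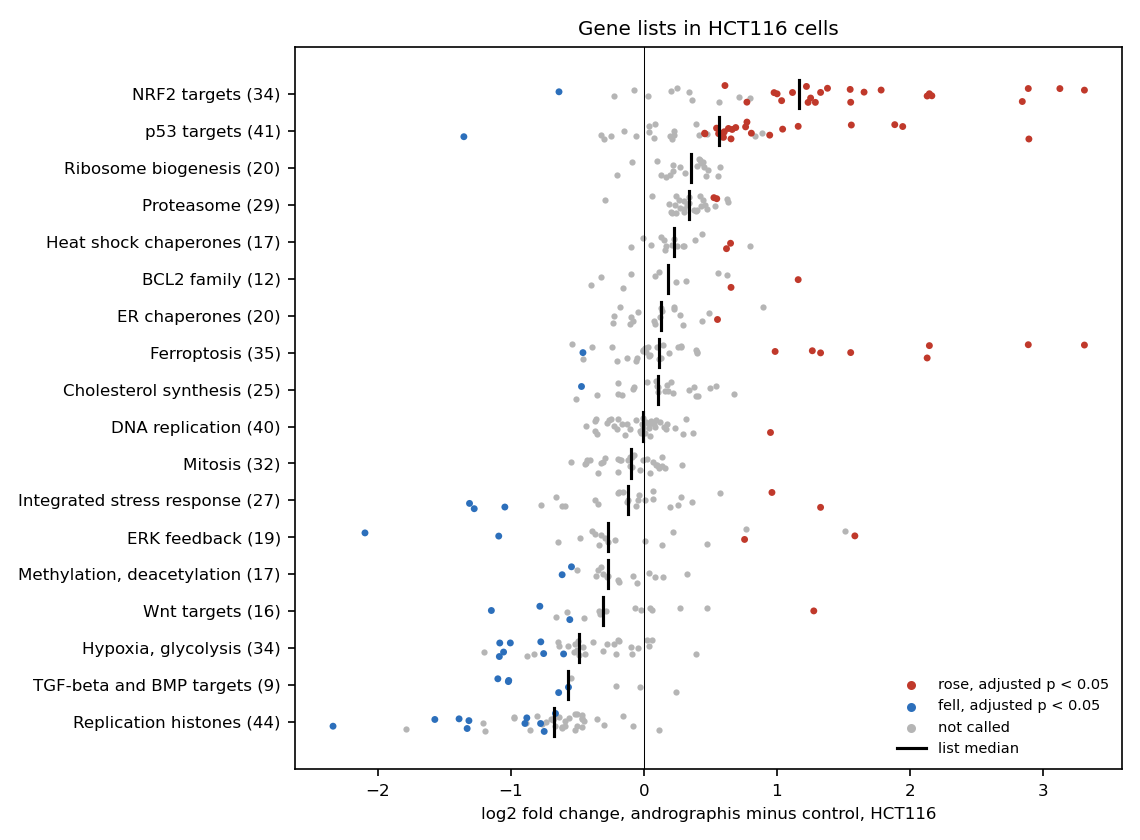
Log2 fold changes (andrographis minus control) in HCT116 cells of the measured members of 18 gene lists, whose number is in brackets, each point a gene. Red and blue points passed an adjusted p of 0.05, grey points did not, and black bars are list medians, from 1.17 for NRF2 targets to -0.67 for replication histones.

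Targets of p53 rose in HCT116 cells. Of 43 listed 41 were measured, 21 rose and 1 fell, and the median was 0.56. SFN, stratifin, which holds cells before mitosis, was at 88.3 and 87.7 FPKM in control and at 659 and 663 FPKM in andrographis libraries (2.90, SE 0.12, adjusted p = 0.00016). The cyclin-dependent kinase inhibitor CDKN1A went from 35.2 and 30.2 to 125 and 132 FPKM (1.95, SE 0.12, adjusted p = 0.000777). GDF15, a secreted stress cytokine, was at 87.7 and 82.4 FPKM and then at 310 and 324 FPKM (1.89, SE 0.11, adjusted p = 0.000614). In all of them the spread within a group was small beside the distance between groups. The kinase PLK3 rose from 15.3 and 12.7 to 42.9 and 43.3 FPKM (1.56, SE 0.12), and the nuclease AEN from 5.20 and 5.03 to 11.3 and 11.95 FPKM (1.04, SE 0.10).

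Death genes and the feedback arm of p53 were among the members that rose. BAX, which perforates the mitochondrial membrane, went from 16.9 and 15.6 to 38.9 and 36.4 FPKM (1.16, SE 0.15, adjusted p = 0.0094). PMAIP1 (NOXA), which neutralizes MCL1, went from 12.3 and 11.2 to 17.9 and 20.3 FPKM (0.66, SE 0.12). BAX and PMAIP1 were the 2 of 12 measured BCL2 family genes that rose, and 0 fell. BBC3 (PUMA), a further p53-induced death gene, was at -0.32, and BAK1 at 0.62 with an adjusted p of 0.0663. MDM2, the ligase that degrades p53, rose by 0.64 (SE 0.14), the repair factor DDB2 by 0.66 (SE 0.14), the death receptor TNFRSF10A by 0.81 (SE 0.15) and the decoy receptor TNFRSF10C by 0.95 (SE 0.13). FAS was at 4.66 and 4.34 FPKM and then at 9.45 and 8.87 FPKM, just outside the threshold (0.89, SE 0.21, adjusted p = 0.0544). The member that fell was KITLG, the ligand of the KIT receptor, from 86.4 and 90.5 to 33.7 and 34.4 FPKM (-1.35, SE 0.13, adjusted p = 0.0038).

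In SW480 cells 0 of the same 41 genes rose and 3 fell, SESN2, PHLDA3 and CYFIP2, with a median of -0.04. The difference between the lines itself passed for 13 genes higher in HCT116 and for 1 lower, against 1.09% and 1.04% of all genes. The largest were SFN (3.28, SE 0.17, adjusted p = 0.00136), GDF15 (2.02, SE 0.15), CDKN1A (1.75, SE 0.17) and PLK3 (1.60, SE 0.17), and the lower one was KITLG (-1.40, SE 0.19). With 1 HCT116 library left out, 4 to 6 of the list rose, and with the HCT116 libraries alone 28 rose and 3 fell.

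**Figure D4:**
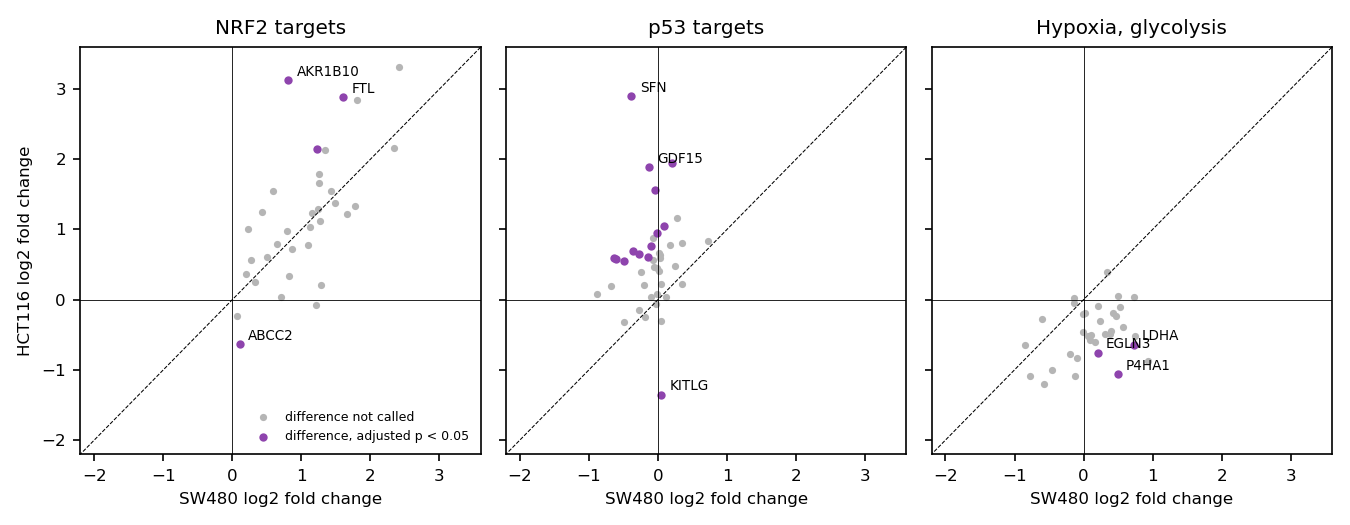
HCT116 against SW480 log2 fold changes (andrographis minus control) of NRF2 targets, p53 targets and hypoxia and glycolysis genes, each point a gene and the dashed line equal response. Purple points differ between the lines at an adjusted p below 0.05; most NRF2 targets lie near the dashed line, and the purple p53 targets lie above it except KITLG.

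Several of the strongest rises belonged to none of these pathways' lists. CPA4, a secreted carboxypeptidase, had the largest log2 fold change, from 1.10 and 1.43 FPKM in control to 22.4 and 23.5 FPKM in andrographis libraries (3.41, SE 0.13, adjusted p = 0.00016). In SW480 cells its log2 fold change was -0.07, and the difference of 3.47 (SE 0.18, adjusted p = 0.00136) was the largest of those called. KRT15, a basal keratin, went from 1.73 and 1.94 to 12.3 and 12.4 FPKM (2.24, SE 0.11), and it fell in SW480 cells (-0.77, adjusted p = 0.0172). HRNR, hornerin of the cornified envelope, went from 0.537 and 0.477 to 7.54 and 7.27 FPKM (2.48, SE 0.14). Each of these had closely matched replicates. NAV3, a neuron navigator protein, went from 0.740 and 0.852 to 10.4 and 9.99 FPKM (2.64, SE 0.25), and EID3, an EP300-interacting inhibitor of transcription, from 6.31 and 7.23 to 32.5 and 35.6 FPKM (2.17, SE 0.22). KRT19 was the 1 epithelial marker of 9 that rose, from 432 and 479 to 794 and 796 FPKM (0.80, SE 0.16).

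Matrix and invasion genes included 14 measured of 24, with 4 that rose, 1 that fell and a median of 0.40. The laminin chain LAMB3 rose by 0.82 (SE 0.18) and SNAI1, a repressor of E-cadherin, by 0.52 (SE 0.11). Fibronectin FN1 went the other way, from 16.3 and 16.6 to 4.96 and 4.95 FPKM (-1.55, SE 0.16, adjusted p = 0.00494). None of LAMB3, SNAI1 and FN1 kept its call in each fit without 1 HCT116 library. Other genes that did, picked after their values were seen, were ALAS1, the limiting enzyme of heme synthesis, at 42.0 and 39.7 and then 112 and 112 FPKM (1.43, SE 0.11), GPAT3, a glycerol-phosphate acyltransferase, at 9.37 and 8.06 and then 39.0 and 39.0 FPKM (2.05, SE 0.15), and the Wnt ligand WNT9A at 1.78 and 1.85 and then 8.96 and 9.24 FPKM (1.84, SE 0.15).

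ERK feedback genes moved in both directions. DUSP6, the phosphatase that switches ERK off and whose transcription follows ERK activity, was at 114 and 116 FPKM in control and at 26.3 and 25.9 FPKM in andrographis libraries (-2.10, SE 0.19, adjusted p = 0.00337). ETV1, an ETS factor, fell from 7.37 and 7.73 to 3.04 and 2.99 FPKM (-1.09, SE 0.11). FOSL1, an AP-1 subunit that also follows ERK, rose from 27.2 and 26.3 to 80.8 and 83.9 FPKM (1.59, SE 0.25, adjusted p = 0.0188), and the receptor EPHA2 rose by 0.76 (SE 0.15). So 2 of 19 measured members rose and 2 fell (10.5% each, against 3.16% and 4.37% of all genes), and the median was -0.27. At an unadjusted p below 0.05 by limma 4 were higher and 7 lower. With the HCT116 libraries alone 5 rose and 10 fell, against 19.8% and 21.9% of all genes. With 1 HCT116 library left out, 0 rose and 0 or 1 fell. SPRY2 and EGR1 were at -0.65 and -0.48 and DUSP5 at 1.51, none of which passed (adjusted p = 0.192, 0.39 and 0.077). Among growth factor ligands 3 of 9 fell and 0 rose: KITLG, BDNF, from 2.90 and 3.43 to 1.46 and 1.31 FPKM (-0.80, SE 0.13), and epiregulin EREG (-0.60, SE 0.12).

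Genes of Wnt and BMP signaling were lower in part. SOX4, a progenitor transcription factor, went from 27.0 and 26.7 to 6.58 and 7.79 FPKM (-1.77, SE 0.21, adjusted p = 0.0072). TCF7L2, the main TCF partner of β-catenin in the intestine, fell from 76.5 and 71.9 to 34.9 and 33.2 FPKM (-1.10, SE 0.16), and both were the 2 of 21 listed transcription factors called. The Wnt feedback gene AXIN2 fell from 9.37 and 8.97 to 3.90 and 3.30 FPKM (-1.15, SE 0.14, adjusted p = 0.00853). BAMBI, a decoy of TGF-β and BMP receptors, and the ligase RNF43, which removes Wnt receptors, fell too (-0.78, SE 0.17, and -0.56, SE 0.09). DKK1, a secreted Wnt antagonist, rose instead, from 44.3 and 43.2 to 108 and 107 FPKM (1.28, SE 0.22). Of 16 measured Wnt targets 3 thus fell and 1 rose, with a median of -0.31, and 0 did either with any 1 HCT116 library left out. In SW480 cells DKK1 fell (-1.12, adjusted p = 0.0351), and the difference between the lines was 2.39 (SE 0.31, adjusted p = 0.0244).

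Of 9 measured TGF-β and BMP genes 5 fell and 0 rose, with a median of -0.57. SMAD7, the inhibitory SMAD, went from 5.14 and 5.61 to 1.93 and 2.02 FPKM (-1.10, SE 0.14). The ligand BMP4 went from 149 and 154 to 74.3 and 74.2 FPKM (-1.02, SE 0.17), and ID2, an inhibitor of differentiation that BMP induces, from 96.4 and 91.4 to 44.5 and 47.4 FPKM (-1.02, SE 0.17). Treated and control libraries did not overlap in any of them, as in 76.4% of all genes. ID4 and SMAD9 fell by 0.64 (SE 0.07) and 0.57 (SE 0.08) from low levels, and ID1 was at 310 and 315 and then at 299.6 and 314 FPKM. With 1 HCT116 library left out, 0 or 1 of this list fell.

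Among the other large falls, S100A4, a calcium-binding protein linked to cell motility, went from 111 and 109 to 33.0 and 33.2 FPKM (-1.71, SE 0.12, adjusted p = 0.00104). IGSF9, an immunoglobulin superfamily adhesion protein, went from 5.76 and 6.03 to 1.27 and 1.09 FPKM (-1.66, SE 0.10, adjusted p = 0.000777). The nuclear receptor NR2F1 went from 32.8 and 29.5 to 10.98 and 11.03 FPKM (-1.42, SE 0.17). In each of these the treated libraries agree to within a narrow band. BCOR, a corepressor of BCL6 and a Polycomb subunit, fell from 35.8 and 38.2 to 14.3 and 14.2 FPKM (-1.32, SE 0.12), and the zinc finger gene ZNF608 from 13.3 and 14.8 to 5.01 and 5.09 FPKM (-1.31, SE 0.12). S100A4 and IGSF9 did not pass in SW480 cells (-0.22 and -0.14), and their responses differed between the lines by -1.48 (SE 0.17) and -1.52 (SE 0.15).

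Replication histones, which cells make in S phase to package new DNA, were lower almost without exception. Of 66 listed genes 44 were measured, 43 were lower and 1 higher, 10 fell and 0 rose, 25 were lower at an unadjusted p below 0.05 by limma, and the median was -0.67. Over all 11125 genes 5790 were lower, 1603 of them at that unadjusted p. The histones H1-6 and H3C15, both lower, passed the floor through the control libraries only. H2BC13 was at 144 and 154 FPKM in control and at 31.6 and 26.1 FPKM in andrographis libraries (-2.34, SE 0.30, adjusted p = 0.00952). H2BC14 went from 247 and 273 to 85.7 and 87.8 FPKM (-1.57, SE 0.25) and H2AC14 from 598 and 704 to 255 and 260 FPKM (-1.33, SE 0.17). These are high levels with a clear gap between the groups. H4C8 and H2BC7 fell by 1.39 (SE 0.28) and 1.32 (SE 0.22), and H2AC12 went from 757 and 816 to 438 and 408 FPKM (-0.89, SE 0.18). With the HCT116 libraries alone 39 of the 44 fell, and with 1 HCT116 library left out 0 or 1 did. In SW480 cells 12 fell and 0 rose, with a median of -0.85. Histone genes of a class are near-identical copies, so the share of reads given to each is uncertain.

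Few other genes of the cell cycle passed. Of 40 measured DNA replication genes 1 rose (2.5%, against 3.16% of all genes) and 0 fell, with a median of -0.01. This was CCNE1, cyclin E1 of the G1 to S transition, which went from 10.7 and 9.66 to 20.3 and 20.8 FPKM (0.95, SE 0.19). At an unadjusted p below 0.05 by limma 2 of the 40 were higher and 4 lower. With the HCT116 libraries alone 4 rose and 9 fell, against 19.8% and 21.9% of all genes. PCNA was at 0.37 and MCM7 at -0.43 without passing. Of 32 mitosis genes 0 passed by limma in either direction (1 was lower at an unadjusted p below 0.05, and 9 fell and 1 rose with the HCT116 libraries alone), with a median of -0.10, and MKI67 was at 237 and 264 and then at 173 and 168 FPKM (-0.55, SE 0.36). In SW480 cells 9 of the replication genes rose, and MCM2, ORC1 and UHRF1 responded differently there, with HCT116 minus SW480 differences of -1.23, -0.98 and -1.07.

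Hypoxia and glycolysis genes were lower in HCT116 cells. Of 34 measured 30 were lower, 7 fell and 0 rose, 17 were lower at an unadjusted p below 0.05 by limma, and the median was -0.49. The same counts over all 11125 genes were 5790 lower and 1603 lower at that unadjusted p. P4HA1, a collagen prolyl hydroxylase, went from 59.7 and 60.9 to 28.5 and 28.5 FPKM (-1.05, SE 0.19). The mitophagy receptors BNIP3 and BNIP3L fell from 18.9 and 20.2 to 9.02 and 9.48 FPKM (-1.004, SE 0.10) and from 26.7 and 23.95 to 11.04 and 11.7 FPKM (-1.09, SE 0.20). PFKFB4, which sets the level of a glycolytic activator, went from 18.7 and 18.9 to 8.22 and 8.50 FPKM (-1.08, SE 0.14). In all of them the treated libraries lay far below the controls. The oxygen sensors EGLN1 and EGLN3 and the demethylase KDM3A fell by 0.60 (SE 0.13), 0.75 (SE 0.09) and 0.77 (SE 0.17). EGLN3 went from 2.19 and 2.02 to 0.772 and 0.915 FPKM and passed the floor through the control libraries only. The glucose transporter SLC2A1 was at 213 and 218 and then at 93.1 and 92.9 FPKM, LDHA at 102 and 99.1 and then at 66.1 and 62.4 FPKM, and GAPDH at 106 and 110 and then at 82.9 and 73.8 FPKM, none past the threshold (adjusted p = 0.0629, 0.0542 and 0.0635). With the HCT116 libraries alone 25 of the 34 fell, and with 1 left out 0 or 1. In SW480 cells the median was 0.18, with 3 that rose and 1 that fell, and the responses of P4HA1, LDHA and EGLN3 differed between the lines (-1.55, -1.36 and -0.96).

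**Figure D5:**
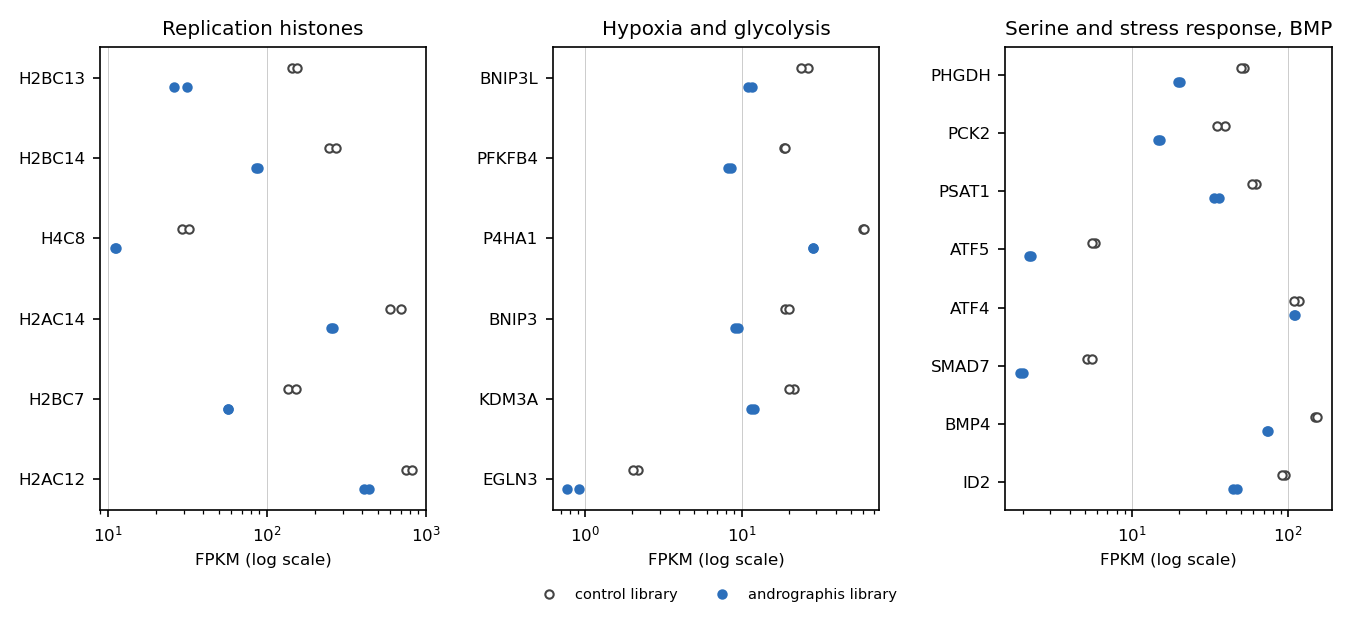
FPKM (log axis) in every HCT116 library for replication histones, hypoxia and glycolysis genes, and genes of serine synthesis, the stress response and BMP signaling; open circles are the 2 control and filled circles the 2 andrographis libraries. H2BC13 drops from above 140 to about 30 FPKM, while ATF4 shows overlapping groups near 110 FPKM.

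Genes of the integrated stress response were called in both directions. Of 27 measured genes of the integrated stress response, which ATF4 drives when translation is restrained, 2 rose and 3 fell, with a median of -0.12, and 0 did either with any 1 HCT116 library left out. PHGDH, the first enzyme of serine synthesis, was at 52.9 and 49.9 FPKM in control and at 19.9 and 20.3 FPKM in andrographis libraries (-1.31, SE 0.17, adjusted p = 0.0104). The mitochondrial carboxykinase PCK2 went from 39.7 and 35.5 to 15.1 and 14.7 FPKM (-1.28, SE 0.25), and the factor ATF5 from 5.79 and 5.54 to 2.19 and 2.26 FPKM (-1.05, SE 0.24). ATF3 rose from 5.16 and 4.55 to 10.2 and 10.6 FPKM (0.96, SE 0.17), and SLC7A11, shared with the NRF2 list, was the other that rose. PSAT1, which follows PHGDH in the pathway, was at 62.4 and 59.1 and then at 36.5 and 33.6 FPKM without passing (-0.78, SE 0.29, adjusted p = 0.166). ATF4 itself was at 119 and 110 and then at 112 and 110 FPKM, and DDIT3 (CHOP) at 0.36. In SW480 cells PHGDH was at 0.28, and the difference of -1.59 (SE 0.24, adjusted p = 0.0345) was the largest of those lower in HCT116.

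Genes of protein quality control mostly had small positive fold changes, and few passed the test. Of 29 measured proteasome subunits 28 were higher and 1 lower, with a median of 0.34, and 2 rose, PSMD7 from 19.4 and 18.7 to 28.4 and 28.2 FPKM (0.55, SE 0.12) and PSMD11 from 19.5 and 18.0 to 27.4 and 27.5 FPKM (0.53, SE 0.10). PSMB6 was at 153 and 138 and then at 226 and 224 FPKM without passing (0.63, SE 0.21, adjusted p = 0.133). With the HCT116 libraries alone 25 of the 29 rose, and with 1 left out 0 did. Ribosome biogenesis genes were alike, with 18 of 20 higher, a median of 0.35 and 0 past the limma test (8 higher at an unadjusted p below 0.05, and 15 that rose with the HCT116 libraries alone). Over all 11125 genes 5335 were higher, 1254 of them at that unadjusted p. Of 17 heat shock chaperones 2 rose, HSPA4 by 0.65 (SE 0.15) and the HSP90 activator AHSA1 by 0.62 (SE 0.11), and of 20 chaperones of the endoplasmic reticulum 1, MANF, by 0.55 (SE 0.12). HSPA5 (BiP) was at 158 and 166 and then at 232 and 224 FPKM (0.49, SE 0.12, adjusted p = 0.0663). In the autophagy and lysosome list 2 of 20 rose, SQSTM1 and the protease CTSL, from 19.1 and 17.1 to 46.1 and 44.3 FPKM (1.28, SE 0.24).

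No gene of the lipid synthesis lists was called as rising. Of 25 cholesterol genes 1 fell (4%, against 4.37% of all genes), lanosterol synthase LSS (-0.48, SE 0.10), and the median was 0.10. Of 15 fatty acid genes 2 fell (13.3%), the transcription factor SREBF1, from 61.5 and 64.4 to 37.5 and 41.1 FPKM (-0.67, SE 0.15), and ACSL5. With the HCT116 libraries alone 7 cholesterol genes rose and 4 fell, and 3 fatty acid genes rose and 6 fell. In that fit 19.8% of all genes rose and 21.9% fell. Of 17 methyltransferases, demethylases and deacetylases 2 fell, HDAC5 (-0.61, SE 0.14) and HDAC1 from 64.7 and 61.6 to 44.1 and 41.9 FPKM (-0.54, SE 0.10). Of 10 ABC transporters ABCG2 rose by 0.44 (SE 0.09) and ABCC2 fell. ABCG2 went from 0.605 and 0.811 to 1.39 and 1.24 FPKM and passed the floor through the andrographis libraries only. Of 11 YAP targets the tissue factor gene F3 rose by 0.74 (SE 0.12) and ARHGEF17 fell (-0.50, SE 0.10). Of 26 NF-κB targets 15 were measured, and RELB rose (0.74, SE 0.14). Of 28 interferon and antigen genes 13 were measured, and IFIT1 fell (-0.50, SE 0.10). Of 6 metallothionein and zinc genes 0 passed by limma (2 lower at an unadjusted p below 0.05), with MT1E at -1.28 (SE 0.31, adjusted p = 0.0578). Over all genes 3.16% rose and 4.37% fell, so single calls say little about lists this short. With the HCT116 libraries alone 4 NF-κB targets rose and 0 fell, and 2 interferon and antigen genes rose and 5 fell. ACTA2, a smooth muscle actin and the 1 stromal marker called, rose from 4.51 and 4.23 to 8.49 and 7.55 FPKM (0.75, SE 0.11).

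The response of HCT116 differed from that of SW480 at 237 of the 11125 genes, 121 higher (1.09%) and 116 lower (1.04%) in HCT116. The genes most different in the upward direction were CPA4, SFN, KRT15, ALDH1A3, DKK1 and AKR1B10, and in the downward direction PHGDH, CD37, P4HA1, IGSF9, S100A4 and KITLG. CD37, a tetraspanin known from leukocytes, fell in HCT116 cells from 13.8 and 13.6 to 6.81 and 7.07 FPKM (-0.89, SE 0.12) and rose in SW480 cells (0.70, adjusted p = 0.0271), a difference of -1.59 (SE 0.18). ALDH1A3, DKK1 and KRT15 rose in HCT116 and fell in SW480 cells. The count was 2 without HCT116 control replicate 2, where CPA4 and KRT15 remained, and 4 without any other HCT116 library, where SFN and AKR1B10 remained as well, and it reached 1593 without SW480 andrographis replicate 1.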

How the data were processed

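RNA of HCT116 and SW480 cells was sequenced as paired-end 150 bp reads, with 2 libraries per group, and libraries were assigned to groups from the titles and column names. The authors deposited log2(value + 1) per gene, and their processing notes list the aligner STAR (2.7.8a), Partek (10.0.22.0121), DESeq2, bcl2fastq (2.20.0.422) and human build GRCh38 without saying what each was used for. The counting tool, its treatment of multiply matching reads and the unit are not given in the sources used here. Low microRNA genes were examined to find the base of the log. In them, 2 to the power of the value minus 1 gave whole multiples of 1 read for 307 of 307 values (tolerance 0.01 times the read number, up to 20 reads). With base e 39.9% did so, and with base 10 24.1%. The step size was fitted for each library, so any unit scaled to gene length would pass. The values are called FPKM on that assumption, and depth is approximate and depends on it.

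Genes reaching 1 FPKM in 2 or more of the 8 andrographis experiment libraries (12811) were fitted with limma 3.58.1 in R 4.3.3 (lmFit, then eBayes with trend, 4 group means, 4 residual degrees of freedom) on log2(FPKM + 1), which understates the change of low genes. P-values were adjusted by Benjamini-Hochberg over all 12811, and the difference between the lines was an interaction term. Fold changes are log2 differences of group means. No source states separate cultures for the replicate libraries, and p-values measure only the spread between these libraries, which may be technical. The procedure was tested on simulated data. Figures and promoter searches used Python 3.11.15, pandas 2.3.3 and matplotlib 3.10.9.

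The genes named were the 15 largest rises and falls past the adjusted threshold with separated groups and at least 5 FPKM in the higher group, up to 6 called members of each list with members that define its role, the 6 largest differences between lines in each direction, and GPX4, AIFM2 and GAPDH. A few genes that fall under this rule are not reported here. The gene set, the lists and this rule were chosen with earlier results of these data known. Alternative fits scaled the libraries to a common median, dropped the trend, used no filter or a 10 FPKM filter, used a pseudocount of 0.1 or 10, added replicate as a block, kept only the 4 HCT116 libraries, or left out each library. The curcumin libraries, the 936 tested genes that are not protein-coding (29 called) and the combination treatment were not analysed here.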

Additional observations from a re-analysis of the deposited data

Results flagged for a closer look

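Among the genes named, 51 had a response that differed between HCT116 and SW480 cells by the limma interaction test at an adjusted p below 0.05. Values are HCT116 minus SW480 differences of log2 fold changes. The SW480 libraries of a group differed more from each other than the HCT116 ones, and both enter every difference. With 1 HCT116 library left out, CPA4 and KRT15 kept the call in each of the 4 fits, SFN and AKR1B10 in all but that without control replicate 2, and none of the others named here did in any.

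The response was higher in HCT116 for 3 of the 34 measured NRF2 targets, AKR1B10 (2.32), FTL (1.29) and GCLM (0.92), and lower for 1, ABCC2. The medians of that list were 1.17 in HCT116 and 1.14 in SW480 cells. Outside it, the response was higher for the fatty acid hydroxylases CYP4F11 (2.26) and CYP4F3 (1.93) and for ALAS1 (1.13) of heme synthesis. It was also higher for 13 of the 41 measured p53 targets, of which SFN (3.28), GDF15 (2.02), CDKN1A (1.75), PLK3 (1.60), PHLDA3 (1.24), TNFRSF10C (0.96), AEN (0.96) and PMAIP1 (0.93) are named here. The others were CPA4 (3.47), KRT15 (3.01), ALDH1A3 (2.78), DKK1 (2.39), HRNR (2.14), NAV3 (2.11), FGFBP1 (2.05), WNT9A (1.46), AGPAT4 (1.35), GPAT3 (1.32), SPP1 (1.08) and ACTA2 (1.02). Of these, KRT15, ALDH1A3, DKK1 and FGFBP1 fell in SW480 cells. AKR1B10, CYP4F11 and CYP4F3 were near 0 in the SW480 controls, at 0.0535 FPKM or less. In the SW480 andrographis libraries CYP4F11 was at 0.704 and 1.42 FPKM and CYP4F3 at 1.45 and 2.18 FPKM. At such levels adding 1 before the log shrinks the fold change. A higher response on this scale therefore need not be a larger fold for these genes.

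The response was lower in HCT116 for metabolic genes, namely PHGDH (-1.59), P4HA1 (-1.55), LDHA (-1.36), ACSL5 (-0.97) and EGLN3 (-0.96), and for the replication and chromatin genes MCM2 (-1.23), UHRF1 (-1.07) and ORC1 (-0.98). It was lower for the regulators BCOR (-1.11), NCOA5 (-0.98), ETV1 (-0.97), ZNF608 (-0.92), HDAC1 (-0.77) and ID4 (-0.64), and for CD37 (-1.59), IGSF9 (-1.52), S100A4 (-1.48), KITLG (-1.40), CSTA (-1.35), DRD1 (-1.30), FAT4 (-1.29), PDE4B (-1.26), PEG10 (-1.19), TFRC (-1.02) and ABCC2 (-0.74). SW480 controls held only 0.055 and 0.0514 FPKM of ABCC2, which left little room for a fall there.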

How the results depend on the processing

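The count of 694 was 435 with no filter, 377 with a filter at 10 FPKM (231 up, 146 down), 377 with a pseudocount of 0.1, 198 with a pseudocount of 10 (121 up, 77 down) and 1173 with only the 4 HCT116 libraries, and 49 to 83 with 1 HCT116 library left out. The causes were not tested. It was 625 with scaled libraries and 680 without trend. Every tested one of the 694 genes kept its direction in all these fits. At the threshold of the study's methods, 1096 became 592 with the 10 FPKM filter and 246 with a pseudocount of 10, and 975 to 1013 with an HCT116 library left out. The 237 differences between lines became 68 with no filter, 148 with the 10 FPKM filter, 66 and 474 with pseudocounts of 0.1 and 10, and 2 to 1593 with a library left out (90 and 38 without SW480 control replicate 1 and 2). Replicate numbers were not shown to pair the libraries: deviations of replicate 1 correlated at 0.0209 between the HCT116 groups and 0.594 between the SW480 groups. With a replicate block the counts were 1049 and 580, and 1 named gene gained its call and 0 lost it. Of 95 genes chosen by the naming rule, no called one changed direction in any fit. Uncalled members named for their role in a list, such as ATF4, were not among the 95. Of 95, 66 to 73 lost the call when an HCT116 library was left out, 28 with no filter, 28 with a pseudocount of 0.1, 6 with scaled libraries, 5 with a pseudocount of 10 and 2 without trend. Low genes are limited by depth, and identity between paralogous proteins was not analysed here.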

Other observations

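Some genes outside the lists kept their call whichever HCT116 library was left out, and were picked after their values were seen. Among the falls, FAT4, an atypical cadherin, was at 3.82 and 3.45 FPKM in control and at 0.876 and 0.904 FPKM in andrographis libraries (log2 fold change -1.29, SE 0.08, limma adjusted p = 0.000777). The cyclic AMP phosphodiesterase PDE4B went from 12.9 and 12.2 to 4.37 and 4.85 FPKM (-1.27, SE 0.09), the cysteine protease inhibitor CSTA from 5.28 and 6.03 to 1.80 and 1.73 FPKM (-1.26, SE 0.09), and the nuclear receptor coactivator NCOA5 from 38.8 and 41.2 to 15.8 and 15.3 FPKM (-1.31, SE 0.11). The retrotransposon-derived gene PEG10 fell from 7.39 and 6.17 to 2.28 and 2.52 FPKM (-1.19, SE 0.10). In SW480 cells FAT4, PDE4B, CSTA and PEG10 were hardly expressed, with 0.233 FPKM of CSTA as the highest level in any library, which left little room for a fall there.

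Among the rises of this kind, the hexokinase domain gene HKDC1 went from 2.88 and 2.30 to 13.3 and 12.9 FPKM (1.98, SE 0.17), while HK2 of the glycolysis list was at -0.52 without passing. The secreted growth factor carrier FGFBP1 went from 3.35 and 3.07 to 9.23 and 10.3 FPKM (1.35, SE 0.11), and in SW480 cells it fell (-0.69, limma adjusted p = 0.0204). Osteopontin, SPP1, went from 1.498 and 1.85 to 4.71 and 4.82 FPKM (1.11, SE 0.09). AGPAT4 and GPAT3, acyltransferases of glycerolipid synthesis, rose by 1.41 (SE 0.09) and 2.05 (SE 0.15).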
